A study of Mus musculus with 12 samples.

Results

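NK cells from mice with Cre and floxed PKM2 alleles (PKM2 KO) were compared with NK cells from mice with the same Cre alone (PKM2 WT), gene by gene, in an RPKM table. An RPKM value is a read count divided by the gene's length in kilobases and by the number of reads mapped. The comparison held 5 of the 12 samples of the series, 2 libraries labelled PKM2 KO and 3 labelled PKM2 WT, and every gene whose RPKM averaged 1 or more across them, which left 11204 of 11706 genes, 9654 of them protein-coding. PKM2 KO replicate 3 had no matching column and was not analysed here, so each PKM2 KO mean rests on 2 libraries. All animals were C57BL6 and carried 1 copy of Cre at Ncr1, the gene of the NK cell receptor NKp46, and the PKM2 KO animals also carried PKM2fl/fl. The age of the animals is not given. Spleen cells were grown for 6 days with IL-15 at 10 ng per mL, NK cells were purified on magnetic columns, and per the labels both groups then received IL-2 at 330 U per mL with IL-12 at 10 ng per mL for 18 hours. Cre acts only where Ncr1 is transcribed, and cells in the preparation that never used Ncr1 would keep PKM2.

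Pyruvate kinase makes pyruvate and ATP in the last step of glycolysis. The gene Pkm gives a constitutively active M1 enzyme or a regulated M2 enzyme, PKM2, according to which of 2 mutually exclusive exons is spliced in, and dividing and activated lymphocytes mainly use M2. A floxed PKM2 allele loses the M2 exon under Cre while the rest of the gene remains. The exons are shown because the knockout rests on the difference between them. Each is 167 bases long and lies on the plus strand of chromosome 9 (GRCm38), exon 9 (M1) at chr9:59675029-59675195 and exon 10 (M2) at chr9:59675568-59675734. Capitals mark the 64 bases at which the pair differ when laid base on base, and 61.7% of positions are identical.
Pkm exon 9 (M1): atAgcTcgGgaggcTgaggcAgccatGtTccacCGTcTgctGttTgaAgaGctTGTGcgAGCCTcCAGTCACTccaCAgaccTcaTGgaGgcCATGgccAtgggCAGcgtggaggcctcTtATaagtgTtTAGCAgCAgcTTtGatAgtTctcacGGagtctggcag
Pkm exon 10 (M2): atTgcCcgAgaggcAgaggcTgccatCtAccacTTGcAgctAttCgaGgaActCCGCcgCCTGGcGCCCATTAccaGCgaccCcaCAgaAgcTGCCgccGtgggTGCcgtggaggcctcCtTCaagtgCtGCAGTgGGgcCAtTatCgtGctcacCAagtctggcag
The deposited table gives 1 value for the whole gene, so reads of the M1 and M2 forms cannot be told apart in it.

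The targeted gene was measured first. Pkm (ENSMUSG00000032294, chromosome 9, 59656368 to 59679375) was at 76.7 and 78.4 RPKM in the libraries labelled PKM2 KO, against 221, 198 and 199 RPKM in those labelled PKM2 WT. Both PKM2 KO values lay below every PKM2 WT value. Pkm fell by a log2 fold change of -1.40 on the log2(RPKM + 1) scale, with an SE of 0.07 and a 95% interval from -1.57 to -1.22 (limma with Benjamini-Hochberg adjustment over all genes, adjusted p = 0.00428). Permuting the labels exactly, two-sided, gave p = 0.1, which with 10 arrangements of 2 and 3 libraries is the lowest value possible. The call missed the threshold with a replicate block (adjusted p = 0.139) and without PKM2 WT replicate 2 (0.0560), PKM2 KO replicate 1 (0.0631) or PKM2 KO replicate 2 (0.0544).

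Markers of NK cells were abundant in both groups. All 12 NK markers were measured, with summed levels of 11001 and 9968 RPKM in PKM2 KO and of 12824, 11350 and 11036 RPKM in PKM2 WT, and 0 of them had an unadjusted p under 0.05, as 7.5% of all protein-coding genes did. Ncr1 was at 232 and 258 RPKM in PKM2 KO, against 241, 238 and 235 RPKM in PKM2 WT. Of 16 T cell markers 9 have a value, Cd3g, Cd3d, Trbc1 and Trbc2 among them, while Cd3e, Cd4, Cd8a, Cd5 and Cd6 have none. No value is given for 8 of 9 B cell markers or for any of 7 erythroid markers. Values are present for 2 of 10 myeloid markers and for 7 of 12 markers of granulocytes, basophils and mast cells. Ifng, the gene of interferon gamma, was low in both groups, at 24.3 and 18.8 RPKM in PKM2 KO against 22.7, 23.4 and 24.2 RPKM in PKM2 WT, although the labels give a treatment known to induce it. In the series' 3 vehicle libraries, labelled with the same cytokines, Ifng averaged 1044 ± 35.6 RPKM (SD). Whether these 5 libraries come from stimulated or from unstimulated cells cannot be told apart here, and every value below may be one of unstimulated cells. Median RPKM over tested genes ran from 13.1 to 13.7 among the libraries. Total reads are not given, so the depth behind each value is unknown.

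Across protein-coding genes the groups were close. The median log2 fold change was -0.003 and the median size of a change was 0.08. Of 11204 genes tested, 11 (0.0982%) passed an adjusted p of 0.05, 2 of them higher and 9 lower. Among the 9654 protein-coding genes, 2 (0.0207%) passed, Pkm and Slc15a2. Slc15a2, which takes up small peptides, was at 0.100 and 0.0800 RPKM in PKM2 KO, against 37.1, 35.9 and 33.0 RPKM in PKM2 WT, with no overlap. It fell, its log2 fold change being -5.06 with an SE of 0.08 (adjusted p = 4.38e-05 by limma). Slc15a2 averaged 1.93 RPKM in the series' 3 vehicle libraries, so a low value was not limited to PKM2 KO. It was 1 of 158 solute carrier genes tested, and no other passed. Of 30 other genes tested within 2 Mb of Slc15a2 on chromosome 16, 26 of them protein-coding, 1, Polq, had an unadjusted p under 0.05. Among all protein-coding genes 7.5% did.

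Testing only the 9654 protein-coding genes, without the short RNAs described at the end, gave 8 calls (0.0829%), 1 higher and 7 lower. The 8 were Pkm, Slc15a2, Amica1, Cd3g, Dixdc1, Nlrx1, Tacc3 and Hist1h2ai. In all 8 the PKM2 KO and PKM2 WT libraries did not overlap, which held for 25.7% of all protein-coding genes. In the 3 vehicle libraries Cd3g averaged 7.90 RPKM, Dixdc1 7.61, Amica1 19.5 and Nlrx1 1.97, each below the PKM2 WT values given below. Vehicle averages of Pkm (1085 RPKM), Tacc3 (101) and Hist1h2ai (37.3) were above both groups. Of the 8, 5 lie on chromosome 9 within 20 Mb of Pkm, Pkm itself being 1 of the 5. Besides Pkm, 204 of the 9654 protein-coding genes lie there. Hist1h2ai was at 1.09 and 0.55 RPKM in PKM2 KO, against 5.77, 4.33 and 4.21 RPKM in PKM2 WT. It is a replication-dependent histone gene with near-identical copies, so reads may be split between copies and its value is uncertain.

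**Figure D1:**
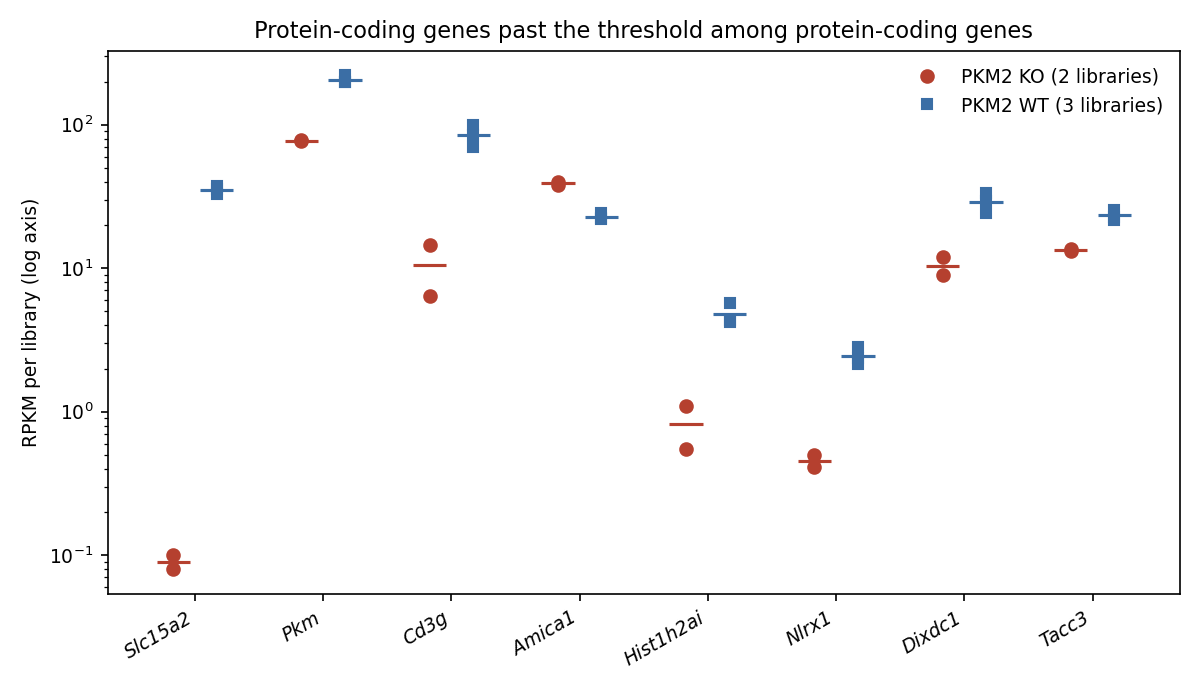
RPKM per library on a log axis for the 8 genes that passed an adjusted p of 0.05 when only protein-coding genes were tested, with the 2 PKM2 KO libraries left of the 3 PKM2 WT libraries and a line at each group's mean. Amica1 alone was higher in PKM2 KO, and Slc15a2 had the widest gap, at 0.0900 RPKM on average in PKM2 KO against 35.3 RPKM in PKM2 WT.

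Amica1 (also named Jaml), an adhesion molecule through which leukocytes bind epithelium, was at 39.9 and 38.0 RPKM in PKM2 KO, against 22.2, 22.1 and 24.5 RPKM in PKM2 WT. Its log2 fold change was 0.74 (SE 0.07; limma adjusted p = 0.0626 over all genes and 0.0289 over protein-coding genes alone). Amica1 lies at -14.6 Mb from Pkm, where a negative distance means a lower coordinate.

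Cd3g, a signalling chain of the T cell receptor complex, lies near Amica1 at -14.7 Mb. It was at 14.6 and 6.43 RPKM in PKM2 KO, against 84.8, 69.9 and 100 RPKM in PKM2 WT. The log2 fold change of Cd3g was -2.98 with an SE of 0.33 (adjusted p by limma, 0.112 over all genes and 0.0249 over protein-coding genes alone). Its neighbour Cd3d, another chain of the same complex, was at 6.54 and 3.01 RPKM in PKM2 KO and at 5.81, 9.11 and 10.1 RPKM in PKM2 WT, so these groups overlapped. Trbc1, a constant segment of the T cell receptor beta chain, overlapped too. It was at 505 and 539 RPKM in PKM2 KO and at 530, 479 and 505 RPKM in PKM2 WT. Trbc2, the other beta constant segment, was at 223 and 222 RPKM in PKM2 KO, against 192, 204 and 220 RPKM in PKM2 WT, so these groups did not overlap (unadjusted p = 0.176 by limma). Cd247, the zeta chain that NK receptors also use, was at 62.4 and 62.0 RPKM in PKM2 KO and at 71.9, 69.5 and 60.4 RPKM in PKM2 WT. Of the 9 T cell markers tested, 1, Cd3g, had an unadjusted p under 0.05, where 7.5% of all protein-coding genes did.

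Dixdc1, a positive regulator of Wnt signalling, was at 11.9 and 8.92 RPKM in PKM2 KO, against 24.1, 29.2 and 33.4 RPKM in PKM2 WT (log2 fold change -1.39, limma adjusted p = 0.152 over all genes and 0.0327 over protein-coding genes alone). Of 18 members of the Wnt list tested 2 had an unadjusted p under 0.05, where 7.5% of all protein-coding genes did. Beside Dixdc1 this was Ctnnb1, the gene of beta-catenin, at 107 and 106 RPKM in PKM2 KO against 97.4, 92.4 and 97.5 RPKM in PKM2 WT. Nlrx1, a NOD-like receptor of mitochondria, was low in both groups, at 0.410 and 0.5 RPKM in PKM2 KO against 2.81, 2.38 and 2.16 RPKM in PKM2 WT (limma adjusted p = 0.204 over all genes and 0.0327 over protein-coding genes alone).

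The neighbourhood of Pkm held a higher share of genes with a small p than the rest of the genome, a pattern noticed in these data and counted on them. The list of mitosis, DNA replication and histone genes described below was set aside for this count. An unadjusted p under 0.01 was found for 183 of all 9654 protein-coding genes (1.9%). Within 20 Mb of Pkm, and without Pkm, it was found for 18 of 199 genes (9.05%). Farther away on chromosome 9 it was found for 2 of 332 genes (0.602%), and on other chromosomes for 83 of 8915 (0.931%). That list was extended with values known, and leaving its genes in gave 22 of 204 (10.8%) within 20 Mb, 5 of 336 (1.49%) farther on chromosome 9 and 155 of 9113 (1.7%) on other chromosomes. By distance the share was 10.0% of 60 genes within 5 Mb, 11.3% of 53 from 5 to 10 Mb, 6.98% of 86 from 10 to 20 Mb, 0.741% of 135 from 20 to 40 Mb and 0.508% of 197 from 40 to 80 Mb. With Pkm included, chromosome 9 had the highest share of all chromosomes, at 3.95%, and chromosome 6 came next at 1.54%.

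The count near Pkm moved with the libraries used. It was 8 without PKM2 KO replicate 1, 7 without PKM2 KO replicate 2, 10 without PKM2 WT replicate 2 and 8 with a replicate block. The share within 20 Mb ranged from 3.52% to 8.04% when 1 library was left out, and that on other chromosomes from 0.269% to 1.21%; within each of these 5 fits the first was the higher. The floxed allele and the DNA beside it are inherited together, so an effect of losing PKM2 and one of sequence linked to the floxed allele cannot be told apart in this design.

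**Figure D2:**
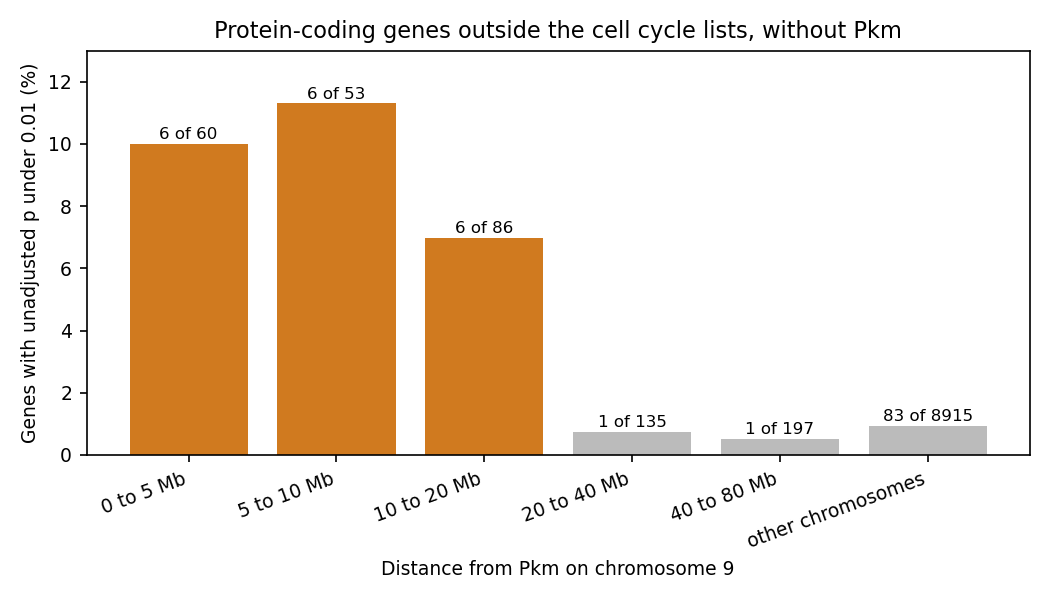
Share of protein-coding genes with an unadjusted limma p under 0.01, by distance from Pkm on chromosome 9 and on other chromosomes, without Pkm and without the cell cycle and histone genes. The 3 zones within 20 Mb stood at 10.0%, 11.3% and 6.98%, and the zones farther away and the other chromosomes below 1%.

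The nearest neighbour of Pkm overlapped between groups. Parp6, which adds ADP-ribose to proteins and lies at -0.03 Mb, was at 10.8 and 10.2 RPKM in PKM2 KO and at 10.6, 10.5 and 11.7 RPKM in PKM2 WT. Adpgk, a glucose kinase that uses ADP, lies at -0.36 Mb and was the nearest gene of small p. It was at 3.20 and 2.54 RPKM in PKM2 KO, against 5.31, 4.96 and 5.61 RPKM in PKM2 WT (log2 fold change -0.71, unadjusted p = 0.00122, limma adjusted p = 0.305).

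A further stretch near -9 Mb held Dixdc1, described above, at -8.97 Mb, and several genes of mitochondria. Pts, at -9.14 Mb, also had lower values in PKM2 KO (unadjusted p = 0.0255 by limma). Dlat, the acetyltransferase subunit of pyruvate dehydrogenase, was at 10.8 and 10.4 RPKM in PKM2 KO, against 17.4, 15.9 and 16.2 RPKM in PKM2 WT (log2 fold change -0.60, limma adjusted p = 0.124). Sdhd, a subunit of succinate dehydrogenase, was at 33.4 and 35.6 RPKM in PKM2 KO, against 49.6, 43.8 and 41.1 RPKM in PKM2 WT. Timm8b, a chaperone of mitochondrial protein import, was at 40 and 35.9 RPKM in PKM2 KO, against 45.5, 46.3 and 46.5 RPKM in PKM2 WT. In Dlat, Sdhd and Timm8b the groups did not overlap, as in 25.7% of all protein-coding genes, and none of them passed over all genes.

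On the other side of Pkm, Vps13c, a lipid transfer protein between organelles, lies at 8.25 Mb and was at 14.3 and 13.0 RPKM in PKM2 KO, against 6.14, 8.85 and 8.15 RPKM in PKM2 WT (log2 fold change 0.76, limma adjusted p = 0.387). Ppcdc, an enzyme of coenzyme A synthesis at -2.26 Mb, was at 26.0 and 27.0 RPKM in PKM2 KO, against 19.0, 17.5 and 19.5 RPKM in PKM2 WT. Tspan3, a tetraspanin at -3.52 Mb, was at 2.56 and 2.57 RPKM in PKM2 KO, against 3.80, 4.28 and 4.11 RPKM in PKM2 WT. Of the 22 genes with an unadjusted p under 0.01 within 20 Mb when cell cycle genes are included, 4 had values above 0 and 18 below. Sdhd, Timm8b and Parp6 were picked with their values known.

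**Figure D3:**
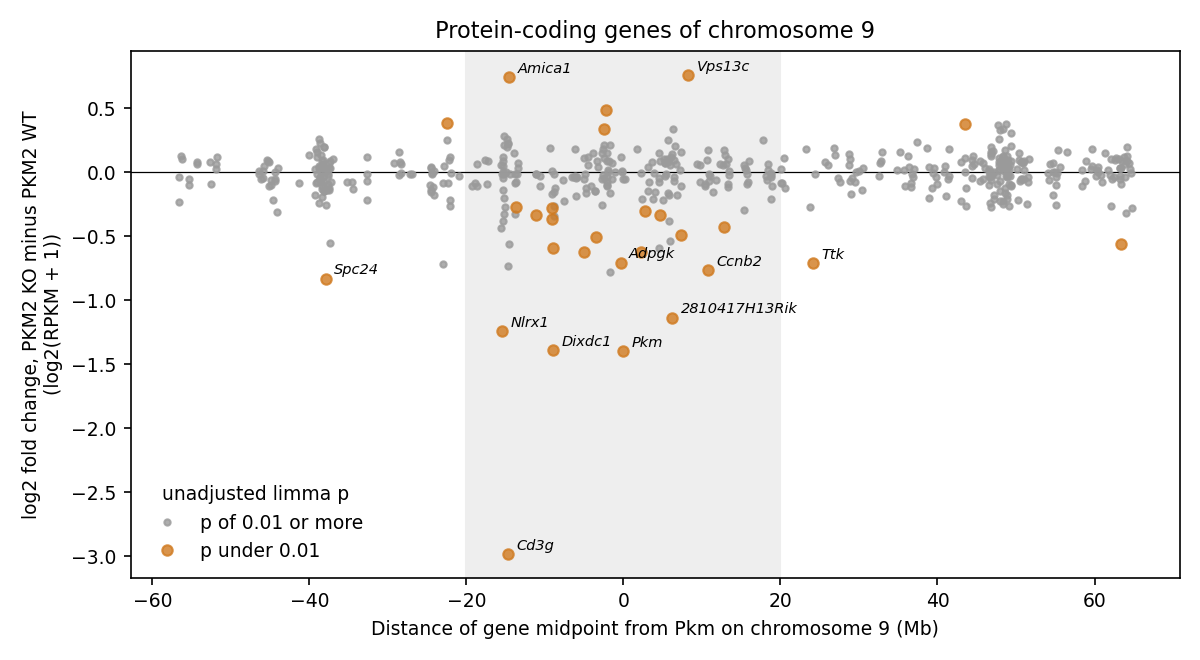
Log2 fold change (PKM2 KO minus PKM2 WT) of each protein-coding gene of chromosome 9 against the distance of its midpoint from Pkm in Mb; orange points have an unadjusted limma p under 0.01 and the grey band is 20 Mb on either side. Orange points crowd in the band, both above and below 0, and Cd3g is the lowest at -2.98.

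The authors' deposited table for the knockout lists 11 genes, with ratios of PKM2 KO over PKM2 WT for stimulated and for unstimulated cells. Slc15a2 is not among the 11, and the reason was not tested. By the annotation, 7 of the 11 lie on chromosome 9 within 20 Mb of Pkm, counting Pkm itself. These 7 are also the ones present in the RPKM table. Of the 9654 protein-coding genes tested, 204 besides Pkm lie in that window. For 3 of the 7 the ratio of RPKM means was nearer to the unstimulated value of the authors' deposited table, and for 4 nearer to the stimulated value. The ratios for Pkm were 0.377 in the RPKM table, against 0.539 stimulated and 0.396 unstimulated in the authors' deposited table. For Dixdc1 they were 0.360, against 0.168 and 0.383 in the authors' deposited table. Slc37a4, which moves glucose 6-phosphate into the endoplasmic reticulum, had 0.847, against 0.411 and 0.845 in the authors' deposited table.

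For the other 4 genes the stimulated ratio was the nearer one. Cd3g had a ratio of 0.124 in the RPKM table, against 0.121 stimulated and 0.0896 unstimulated in the authors' deposited table. Nlrx1 had 0.186, against 0.186 and 0.195 in the authors' deposited table. Rnf26, a ubiquitin ligase of the endoplasmic reticulum, had 0.695, against 0.660 and 0.621 in the authors' deposited table, and Jaml had 1.70, against 1.67 and 2.06. The 5 libraries may have been among those behind the authors' deposited table, so the 2 sources are not independent.

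**Figure D4:**
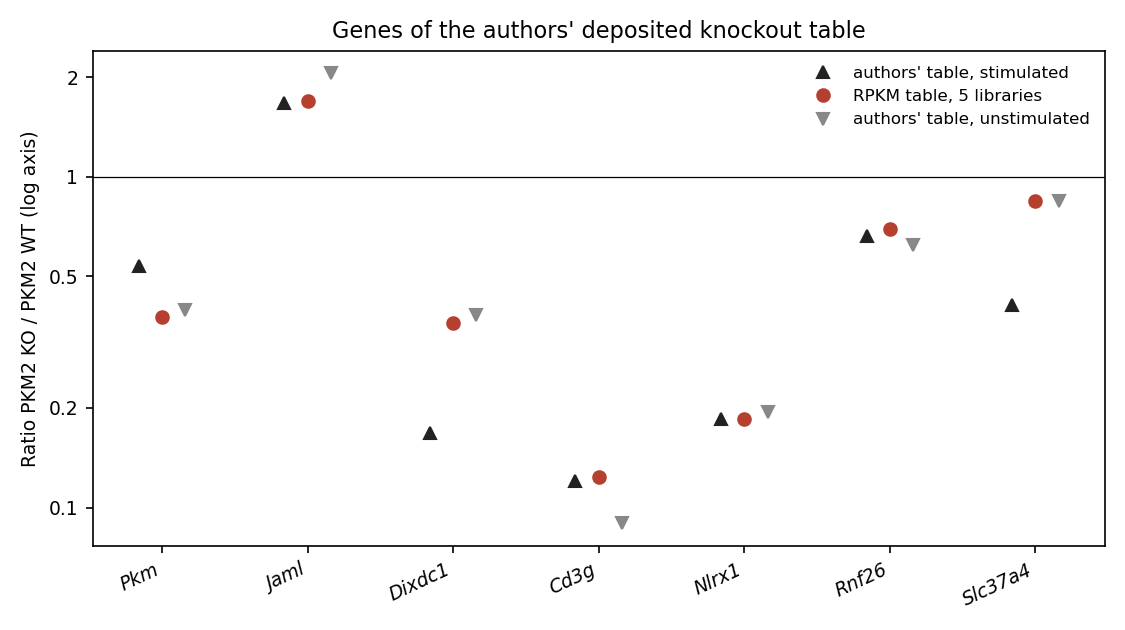
Ratio of PKM2 KO over PKM2 WT on a log axis for the 7 genes of the authors' deposited table that are in the RPKM table, from the means of 2 and 3 libraries (circles) and from the authors' deposited table for stimulated (upward triangles) and unstimulated cells (downward triangles). Pkm, Dixdc1 and Slc37a4 are the genes for which the 2 triangles lie apart and the circle is near the unstimulated one.

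Genes of cell division had values below 0 together. Groups that did not overlap and a fold of at least 1.5 on the log2(RPKM + 1) scale were found for 8 protein-coding genes with higher values in PKM2 KO (0.0829%) and for 135 with lower values (1.4%). Of the 135, 90 were mitosis, DNA replication or canonical histone genes. With the 1.5-fold limit set on the ratio of mean RPKM instead, which lets in more genes of low level, the counts were 27 higher and 217 lower, 122 of those lower being in these classes. All 207 tested genes of these classes had a log2 fold change below 0, with a median of -0.56. But the list was completed with these values known, so its direction and the counts of 90 and 122 are descriptions only. Summed over the mitosis genes, the libraries held 1067 and 1039 RPKM in PKM2 KO, against 1873, 1462 and 1464 RPKM in PKM2 WT, PKM2 WT replicate 1 being the highest. Fewer dividing cells and less of these RNAs per cell cannot be told apart in bulk libraries.

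Tacc3, which stabilises spindle microtubules, was at 13.2 and 13.6 RPKM in PKM2 KO, against 25.5, 21.7 and 22.8 RPKM in PKM2 WT (limma adjusted p = 0.112 over all genes and 0.0368 over protein-coding genes alone). Ccne2, a cyclin of entry into DNA synthesis, was at 5.97 and 7.70 RPKM in PKM2 KO, against 16.5, 13.1 and 14.1 RPKM in PKM2 WT (adjusted p = 0.204 over all genes, limma). Cdk1, the kinase that starts mitosis, was at 25.2 and 23.7 RPKM in PKM2 KO, against 49.1, 40.8 and 37.4 RPKM in PKM2 WT (adjusted p = 0.284, limma). None of the 87 mitosis genes or the 61 replication genes passed over all genes tested.

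The DNA repair list, which shares members with replication, had a median below 0 too. Of 42 members tested, 10 had an unadjusted p under 0.05 with lower values and none with higher values, where 5.4% and 2.1% of all protein-coding genes did. Its median log2 fold change was -0.08. Fanca and Fancd2, which act on DNA crosslinks, and Apex1, an endonuclease of base excision repair, were among the 4 of smallest p. Fanca was at 2.69 and 2.76 RPKM in PKM2 KO, against 4.64, 4.87 and 3.85 RPKM in PKM2 WT, and Apex1 at 8.52 and 9.12 RPKM in PKM2 KO, against 11.1, 12.3 and 10.8 RPKM in PKM2 WT.

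Of 27 tubulins and interphase motors, 5 had an unadjusted p under 0.05, all with lower values, where 5.4% of all protein-coding genes did. The median of this list was -0.05, with 11 members above 0 and 16 below. Tuba1b, an alpha-tubulin, was at 167 and 173 RPKM in PKM2 KO, against 339, 241 and 222 RPKM in PKM2 WT. Tubb5, a beta-tubulin, was at 213 and 219 RPKM in PKM2 KO, against 363, 267 and 261 RPKM in PKM2 WT. Tubulin genes are alike in sequence, so reads may be split between them. In the nuclear pore list 20 of 26 members had values below 0 (median -0.08), as 50.8% of all protein-coding genes did. An unadjusted p under 0.05 was found for 1 of the 26, Nup43, against 7.5% of all protein-coding genes. In the actin assembly list 24 of 33 members had values below 0 (median -0.05, but 0.01 with quantile normalization), and 2 had an unadjusted p under 0.05. The smallest p was that of Cfl1, the filament-severing cofilin, at 493 and 497 RPKM in PKM2 KO against 572, 551 and 604 RPKM in PKM2 WT.

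Other classes had medians slightly above 0. In the family of Tbc1d and Dennd proteins, which switch Rab GTPases off and on, 23 of 32 members were above 0 (median 0.09), with 2 higher and 2 lower at an unadjusted p under 0.05. Of 245 zinc finger genes named Zfp 172 were above 0 (median 0.04), with 1 higher and 1 lower at that p, where 50.8% of all protein-coding genes were below 0. At that p 2.1% of all protein-coding genes were higher and 5.4% lower.

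Many pathways of the cell's upkeep were close to 0. Autophagy (28 members tested, median 0.01), lysosomal hydrolases and membrane proteins (30, median 0.04), ESCRT and retromer sorting (30, median -0.02), fatty acid oxidation (24, median -0.005), mRNA decay (43, median 0.04) and Map kinases (32, median 0.03) each had 0 members with an unadjusted p under 0.05. Among all protein-coding genes 7.5% had one. No member of any list or family other than Slc15a2 and genes named Gm or Rik passed over all genes tested.

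**Figure D5:**
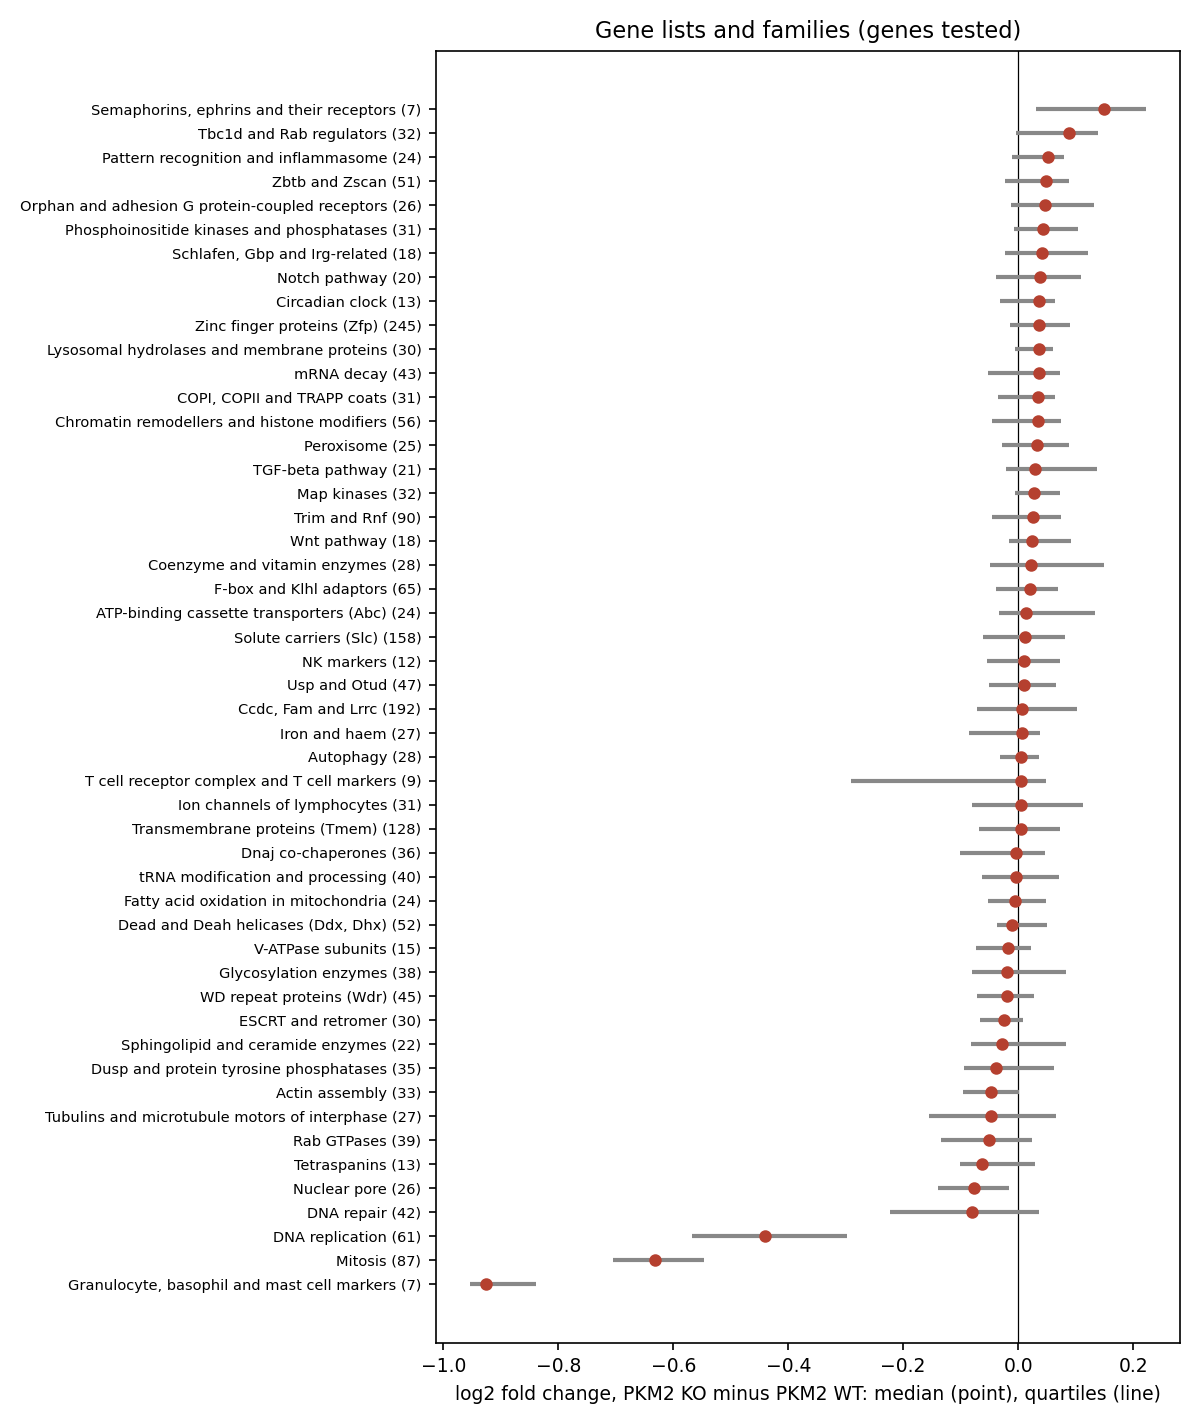
Median log2 fold change (PKM2 KO minus PKM2 WT, point) with its quartiles (line) for each gene list and family with at least 7 genes tested, the number tested in brackets, leaving out genes named Gm or Rik. Mitosis, DNA replication and the granulocyte, basophil and mast cell markers stand apart at the bottom, at -0.63, -0.44 and -0.93, and the other lists lie between -0.08 and 0.15. The mitosis and DNA replication lists were completed with these values known.

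Of 12 markers of granulocytes, basophils and mast cells, 7 were measured. All 7 had values below 0 (median -0.93, and -0.49 without PKM2 WT replicate 3). The groups did not overlap in 5 of 7, against 25.7% of all protein-coding genes. An unadjusted p under 0.05 was found for 1 of 7, against 7.5% of all protein-coding genes, and 0 of the 7 passed. The summed level of these markers was 116 and 69.8 RPKM in PKM2 KO, against 124, 147 and 311 RPKM in PKM2 WT. PKM2 KO replicate 1 thus lay close to PKM2 WT replicate 1, and PKM2 WT replicate 3 was the highest. The mast cell and basophil protease gene Mcpt8 was at 38.8 and 20.5 RPKM in PKM2 KO, against 40.6, 45.8 and 101 RPKM in PKM2 WT. The part of such cells in the other differences was not tested. By Y-linked RNA the sexes were mixed in both groups, with 1 male library in each, and with sex as a covariate 10 genes passed.

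Away from chromosome 9 and from cell division, no protein-coding gene but Slc15a2 passed over all genes. Genes within 20 Mb of Pkm and the cell cycle and histone genes were set aside. Of the other 9247 protein-coding genes, 85 (0.919%) had an unadjusted p under 0.01, 29 with higher and 56 with lower values in PKM2 KO. The genes set aside were defined with values known, so this share cannot be read against the limit itself. On other chromosomes the share was 0.931%, and 1.73% when only protein-coding genes were tested. The genes below were chosen by small p, after their values were seen, unless they belong to a list above. Ifitm2, an interferon-induced membrane protein that restricts viruses, was at 184 and 172 RPKM in PKM2 KO, against 111, 120 and 131 RPKM in PKM2 WT (log2 fold change 0.55, limma adjusted p = 0.284). Abcb1a, a drug efflux pump, was at 20.5 and 20.5 RPKM in PKM2 KO, against 16.6, 16.2 and 15.8 RPKM in PKM2 WT (adjusted p = 0.352, limma).

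Irs2, an adaptor of the insulin and IGF1 receptors, was at 7.89 and 7.86 RPKM in PKM2 KO, against 5.34, 6.01 and 5.28 RPKM in PKM2 WT. Arrdc4, an arrestin-like protein of glucose uptake, was at 11.8 and 10.2 RPKM in PKM2 KO, against 6.38, 6.94 and 7.79 RPKM in PKM2 WT. Eif2ak3, the kinase PERK of the unfolded protein response, was at 53.8 and 53.8 RPKM in PKM2 KO, against 43.0, 42.4 and 45.7 RPKM in PKM2 WT. Sirt4, a mitochondrial sirtuin, was at 5.54 and 5.62 RPKM in PKM2 KO, against 4.14, 4.09 and 3.95 RPKM in PKM2 WT. In these 4 genes, chosen by small p, the groups did not overlap, as in 25.7% of all protein-coding genes. Their limma adjusted p lay between 0.387 and 0.402.

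Acvr2a, an activin receptor, was at 11.9 and 13.0 RPKM in PKM2 KO, against 9.37, 10.1 and 9.92 RPKM in PKM2 WT. Ltbp3, which holds latent TGF-beta, was at 3.98 and 4.2 RPKM in PKM2 KO, against 2.86, 3.15 and 2.43 RPKM in PKM2 WT. These were the 2 of 21 TGF-beta pathway genes with an unadjusted p under 0.05, a share near the 7.5% of all protein-coding genes. Itgb3, the integrin beta-3 chain, was at 84.1 and 84.3 RPKM in PKM2 KO, against 70.6, 68.9 and 66.2 RPKM in PKM2 WT. Dll1, a Notch ligand, was at 21.0 and 18.7 RPKM in PKM2 KO, against 15.4, 17.4 and 14.7 RPKM in PKM2 WT.

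Of the 8 genes with higher values, no overlap and a fold of at least 1.5 on the log2(RPKM + 1) scale, Amica1 and Vps13c lie near Pkm. The other 6 were Rasd2, Bicd1, Cxx1c, Gzmf, Gzmg and Tjp1. Rasd2, a small GTPase of the Ras family, was at 2.12 and 2.79 RPKM in PKM2 KO, against 1.03, 1.03 and 1.22 RPKM in PKM2 WT. Bicd1, a dynein adaptor, was at 6.95 and 5.11 RPKM in PKM2 KO, against 3.14, 3.94 and 3.36 RPKM in PKM2 WT. Tjp1, the tight junction scaffold ZO-1, was at 6.47 and 8.91 RPKM in PKM2 KO, against 2.57, 5.48 and 5.06 RPKM in PKM2 WT. Gzmg, a granzyme gene with close paralogues, was at 113 and 114 RPKM in PKM2 KO, against 84.5, 53.8 and 83.8 RPKM in PKM2 WT.

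Genes with lower values of small p included the following. Cbx5, the heterochromatin protein HP1-alpha, was at 17.2 and 18.8 RPKM in PKM2 KO, against 24.9, 25.5 and 27.3 RPKM in PKM2 WT (limma adjusted p = 0.222). Alyref, an mRNA export factor, was at 46.6 and 50.0 RPKM in PKM2 KO, against 76.2, 68.3 and 65.5 RPKM in PKM2 WT (adjusted p = 0.286, limma). Hmga1, a chromatin protein that bends DNA, was at 17.5 and 18.4 RPKM in PKM2 KO, against 23.9, 23.7 and 22.9 RPKM in PKM2 WT. Tfrc, the transferrin receptor for iron uptake, was at 8.52 and 7.99 RPKM in PKM2 KO, against 11.2, 13.3 and 10.8 RPKM in PKM2 WT. Slc11a2, an iron transporter of endosomes, was on the other side, at 15.8 and 15.8 RPKM in PKM2 KO against 12.3, 13.8 and 13.9 RPKM in PKM2 WT. Tfrc and Slc11a2 were the 2 of 27 iron and haem genes with an unadjusted p under 0.05, a share near the 7.5% of all protein-coding genes.

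Apart from Pkm and Slc15a2, the genes past the threshold over all genes were 9 short or non-coding RNAs. Values of such RNAs scattered far more, and the median coefficient of variation within PKM2 WT was 7.72% for protein-coding genes, 56.3% for snoRNAs and 112% for miRNAs. Of the 9, 8 lie inside a longer gene of the table, and 0 of these 8 hosts passed the threshold. The hosts' log2 fold changes ran from -0.25 to 0.12. An unadjusted p under 0.05 was found for 1 of 8, against 7.5% of all protein-coding genes. This was Lbr, the lamin B receptor that hosts Gm26004, with values on the other side of 0 from Gm26004. Snord8, a snoRNA in the chromatin remodeller gene Chd8, was listed at 0 in both PKM2 KO libraries and at 30.4, 33.5 and 22.2 RPKM in PKM2 WT, while Chd8 was at 39.4 and 42.2 RPKM in PKM2 KO and at 33.3, 40 and 39.8 RPKM in PKM2 WT. Snora61 was at 3.97 and 4.08 RPKM in PKM2 KO and at 42.9, 40.03 and 26.7 RPKM in PKM2 WT, and its host Snhg12 at 11.8 and 9.17 RPKM in PKM2 KO and at 11.7, 10.9 and 15.6 RPKM in PKM2 WT.

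Gm26226, Gm25827, Gm23455 and Gm22372 were also listed at 0 in both PKM2 KO libraries, and in PKM2 WT ranged from 3.22 RPKM for Gm22372 to 290 RPKM for Gm23455. Gm26004 was at 12.3 and 16.5 RPKM in PKM2 KO and listed at 0 in all 3 PKM2 WT libraries. Gm23925 (chromosome 2, 158359797 to 158359928), which shares its name with another row, was at 83.4 and 34.3 RPKM in PKM2 KO and listed at 0 in PKM2 WT. All 9 thus did not overlap between groups, which is likely for RNAs already called and held for 25.7% of all protein-coding genes. Of the 9, 8 rest on values of 0. In the series' 3 vehicle libraries Gm23455, Gm22372 and Mir6374 (described next) also averaged 0 RPKM, and the others averaged above 0.

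Mir6374 is the 1 miRNA gene among the 9 and lies in the gene of the DNA demethylase Tet3. It was listed at 0 in both PKM2 KO libraries and at 18.7, 13.5 and 26.9 RPKM in PKM2 WT, while Tet3 was at 15.3 and 16.3 RPKM in PKM2 KO and at 13.0, 16.1 and 14.5 RPKM in PKM2 WT. Its mature sequence is shown as the identity of the called item (RefSeq, GRCm38.p6, minus strand, chr6:83401060-83401081), with the seed, bases 2 to 8, in capitals.
mmu-miR-6374: aAGUUAUAagcuaguuggugcu
The table gives 1 value for the whole hairpin gene of 107 bases, so the mature form was not measured. Of the 9 RNAs, 3 (Gm23455, Gm23925 and Snora61) have another annotated gene at least 95% identical over at least 90% of their length, and reads may be split between copies. For the other 6 no such copy was found among the annotated transcripts. Less alike or unannotated copies were not sought, so reads of these 6 may be split too.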

How the data were processed

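Reads were aligned with STAR to mm10, per the submitters' processing notes. How reads were counted was not given in the sources used here, nor was the depth. RPKM for 11706 genes is what the authors deposited, with a table of mean ratios (fold) with p-values for knockout genes. Of 16 value columns 11 matched a sample and 5 matched none and were not used. Of 11706 gene IDs 11675 matched GENCODE M21 (GRCm38, the assembly of mm10); positions count from 1.

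Genes averaging 1 RPKM or more across the 5 libraries were fitted on the log2(RPKM + 1) scale by limma 3.58.1 in R 4.3.3 with a variance trend and Benjamini-Hochberg adjustment over all genes tested. The threshold was an adjusted p of 0.05. Tests are two-sided. Fold changes on this scale understate changes of low genes. The test was run on simulated data of independent normal values, with known folds set only in genes of higher level. That run thus does not cover changes of low genes or listed values of 0. Since a listed 0 may stand for an estimate that failed, no fold is given against it. Copies of short RNAs were sought with BLAST+ 2.17.0.

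The members and gene lists (34 lists, 19 name families, and a cell cycle list extended after values were seen) were chosen with earlier results of these data known. Named genes are Pkm, Ncr1, Ifng, those past the threshold, those of the authors' deposited table, the 15 higher and 15 lower protein-coding genes of smallest p with a fold of at least 1.5 and no overlap, up to 4 per list and up to 12 within 20 Mb of Pkm; others are said to be chosen later. Alternatives were other pseudocounts, filters and scalings, a pooled spread, sex, a replicate block, protein-coding genes alone, and each library left out. The labels call the replicates biological without naming animals, and p-values cover only the spread seen among these libraries.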

Additional observations from a re-analysis of the deposited data

How the results depend on the processing

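The count of genes past the threshold, 11, was 18 with a pseudocount of 0.1, 26 with the spread taken from all mapped libraries, of which 4 were among the 11, and 8 to 22 when 1 library was left out (17 when that was PKM2 KO replicate 1, 22 when it was PKM2 KO replicate 2). Fits without a PKM2 KO library rest on 1, assumed to vary like PKM2 WT. Within 20 Mb of Pkm, 1 gene passed, Pkm itself. This count was 2 with a pseudocount of 0.1, a mean of at least 5 RPKM or quantile normalization. It was 8 with the spread from all mapped libraries and 5 with only protein-coding genes tested. It was 0 or 1 when 1 PKM2 WT library was left out. The 18 protein-coding genes of unadjusted p under 0.01 within 20 Mb, a count chosen after seeing the data, were 7 to 16 when 1 library was left out. The log2 fold change of Pkm ranged from -1.42 to -1.35 when 1 library was left out, and missed the threshold in 3 of these fits. No library was left out of the test of protein-coding genes alone. The cause of these moves was not tested.

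Deviations of same-numbered libraries from their group means had a correlation of 0.0712 for number 1 and -0.0916 for number 2. The deviations of 2 PKM2 KO libraries mirror each other, so these are not separate checks and cannot exclude pairing. The labels' numbers were not taken as pairs in the main fit. With a replicate block, 7 genes passed (6 of the 11), 0 within 20 Mb of Pkm, 8 had an unadjusted p under 0.01 there, and Pkm had a log2 fold change of -1.42 (limma adjusted p = 0.139). Ifng ranged from -0.304 to 0.0492 and Ncr1 from -0.0357 to 0.116 (log2 fold change) when 1 library was left out, both changing sign without PKM2 KO replicate 2 and neither called. Depth is unknown and limits low genes such as Nlrx1.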
